A study of Mus musculus with 12 samples.

Results

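Cultured mouse fibro/adipogenic progenitors (FAPs) that received an antisense oligonucleotide (AMO) against an intronic 5' splice site of Pdgfra, together with the growth factor PDGF-AA, were compared with FAPs that received a control AMO and the same PDGF-AA. Each side had 2 arrays, chosen by the sample titles, so 4 of the 12 arrays of the study enter the comparison, and same-numbered replicates were set against each other as pairs. The other 8 arrays hold an AMO against the intronic polyadenylation site of Pdgfra (pA AMO) with PDGF-AA, and the 5'ss, pA and control AMOs without PDGF-AA, at 2 arrays a group. They share the estimate of the spread and are quoted where a value is set beside them.

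All groups share the same cells and handling. FAPs came from uninjured hindlimb muscle of male C57/Bl6 mice aged 8 to 12 weeks, wild type per the labels, and each replicate was made of cells pooled from 2 mice. After 2.5 days in culture the cells received 10 µM of their AMO by transfection for 48 hours. A second transfection at the same dose followed for 48 hours more, with PDGF-AA at a dose the labels give as 50 uM or at 0. The control cells were therefore transfected as often as the others. Total RNA was read on Affymetrix Mouse Gene 1.0 ST arrays, and the values are log2 expression per transcript cluster, the set of probes that stands for a gene or a piece of one. The labels do not say whether replicate 1 of each group came from the same mice, so p-values measure the spread between these arrays.

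FAPs are mesenchymal cells that lie between muscle fibres and can become fibroblasts or adipocytes. They are marked by PDGFRα, the receptor for PDGF-AA, whose signalling is known to drive matrix production and fibrosis. A 5' splice site is where the U1 snRNP starts the removal of an intron, and masking such a site can let a transcript end at a polyadenylation site inside that intron. For Pdgfra the intronic end gives a truncated receptor without the kinase domain, which can act as a decoy for the ligand. The comparison asks which genes differ in PDGF-AA-treated FAPs when that splice site is masked.

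Markers of FAPs were bright. All 9 measured FAP markers, among them Pdgfra, Col3a1, Dcn and Vim, averaged between 8.55 and 13.36 over the 4 arrays, above 5.59, the 95th percentile of 1035 olfactory receptor clusters, which stand here for genes these cells should not express. Of the markers of other cells, 6 of 7 myogenic, 3 of 5 endothelial, 4 of 5 macrophage and 3 of 4 smooth muscle and pericyte markers also lay above that level. So did 3 of 3 tendon, 3 of 3 adipocyte and 1 of 1 Schwann cell markers, so passing it does not single out FAPs. The highest of these other markers was the endothelial gene Tek at 8.89, above Thy1, the lowest FAP marker, at 8.55. In such bulk samples fewer cells of a type and less RNA per cell cannot be told apart. Array medians ran from 6.04 to 6.23, highest in control AMO with PDGF-AA replicate 1. The adipocyte genes set replicate 1 of both groups apart from replicate 2, as described with those genes, so the difference within each replicate is given for the genes and lists where the 2 stood apart.

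Pdgfra itself, the targeted gene, was at 12.89 and 12.84 with 5'ss AMO and PDGF-AA, against 12.75 and 12.78 with control AMO and PDGF-AA (replicates 1 and 2 in this order, as in all pairs of values that follow). The groups did not overlap, yet the difference of 0.095 on the log2 scale (SE 0.087, 95% interval -0.10 to 0.29) did not pass in limma (adjusted p = 0.883, and 0.540 with the replicate number as a block). Its probes are summarised as 1 value that does not separate full-length from truncated transcripts, so it does not check what the AMO did to splicing. The other members of the family lay close by. The second receptor, Pdgfrb, was at 10.97 and 10.93 with 5'ss AMO, against 11.28 and 11.19 with control AMO, a log2 change of -0.29 (adjusted p = 0.823 in limma, 0.214 with the block). The ligands were at 0.17 for Pdgfa, -0.21 for Pdgfb, 0.14 for Pdgfc and -0.08 for Pdgfd, and the receptor-like Pdgfrl was at 0.15. None of the 7 passed, and Pdgfd and Pdgfrl changed sign between the replicates.

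Across all genes the differences were small. Of the 21789 transcript clusters with exactly 1 gene symbol, 5349 (24.5%) were higher with 5'ss AMO in both pairs and 7288 (33.4%) lower. In 2720 (12.5%) both 5'ss arrays lay above both control arrays, and in 3853 (17.7%) below. The median log2 change was -0.022, and the dimmer clusters carried more of the negative values, with medians of -0.080 and -0.088 in the 2 dimmest of 5 equal bins of mean level and 0.033 and 0.026 in the 2 brightest bins. Olfactory receptor clusters, at a median level of 3.76, had a median change of -0.11, with 317 lower and 60 higher without overlap. A count of members lower without overlap therefore has to be read against a background that leans down at low levels. In the brightest bin 913 of 4358 clusters were higher without overlap and 666 lower. Counts of higher members in lists of bright genes have to be read against that. The differences of the 2 pairs correlated at r = 0.19 across clusters, which are not independent replicates.

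No cluster passed an adjusted p of 0.05 in limma without the block (0.0% of those tested). The smallest adjusted p was 0.0601, for Arxes2, and 1308 clusters (6.0%) had an unadjusted p under 0.05. With the replicate number as a block 22 clusters passed (0.101%), of which 15 were higher (0.0688%) and 7 lower (0.0321%), and 3393 (15.6%) were at an unadjusted p below 0.05. The block does not alter a log2 change, only its error. The calls changed when single arrays were left out of the fit with the block: 0 clusters passed once replicate 1 of 5'ss AMO, replicate 1 of control AMO or replicate 2 of control AMO with PDGF-AA was omitted. With replicate 2 of 5'ss AMO omitted, 21 passed, of which 4 were among the 22. In what follows "passed" means the fit with the block unless stated, and none of these genes passed in the fit of all arrays without it.

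**Figure D1:**
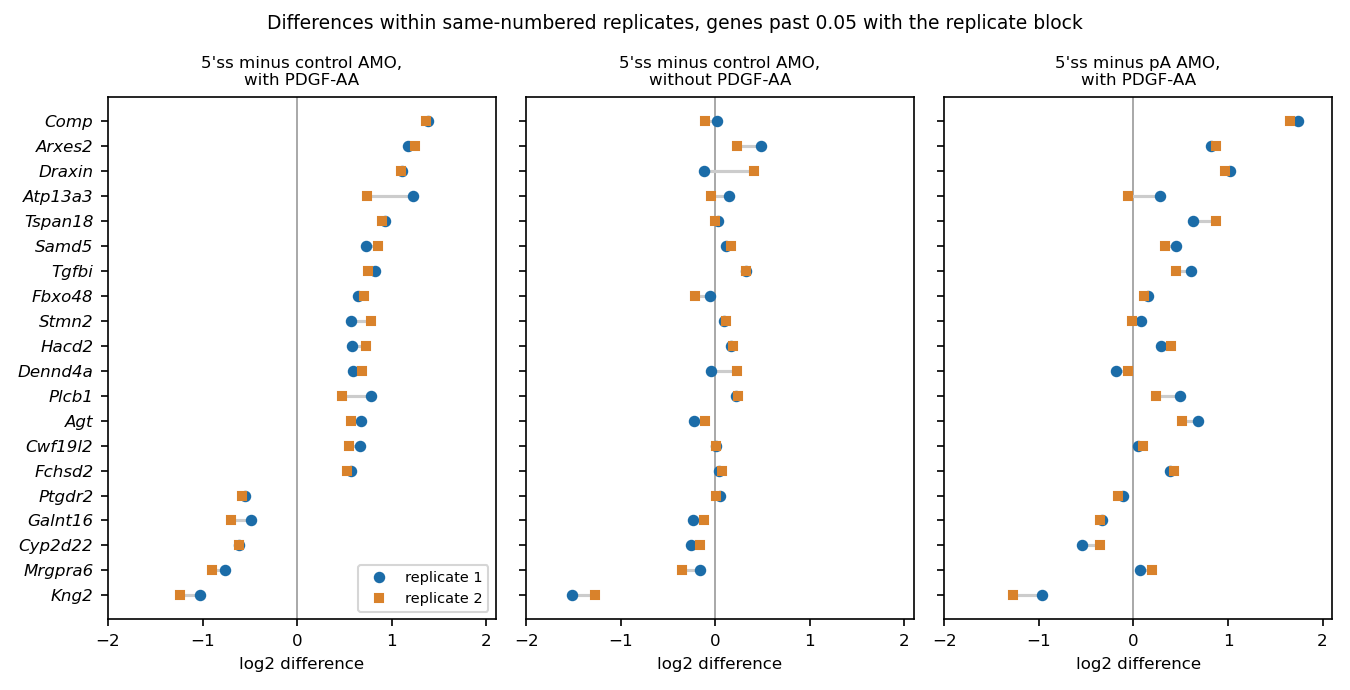
Log2 differences within replicate 1 (circles) and replicate 2 (squares) for the 20 named genes past 0.05 with the replicate block, in 3 panels: 5'ss minus control AMO with PDGF-AA, the same without PDGF-AA, and 5'ss minus pA AMO with PDGF-AA. In the first panel, by which the genes were chosen, both replicates lie on the same side of 0 for every gene; in the second Comp lies at 0.02 and -0.11 and Kng2 at -1.51 and -1.27.

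The largest of these log2 changes was that of an extracellular matrix gene. Comp, a pentameric matrix protein of cartilage and tendon, was at 9.82 and 10.47 with 5'ss AMO and PDGF-AA, against 8.43 and 9.11 with control AMO and PDGF-AA. The difference was 1.38 in replicate 1 and 1.36 in replicate 2, a mean log2 change of 1.37 or 2.59-fold (SE 0.152 with the block, adjusted p = 0.0255 in limma with the block and 0.464 without). The groups did not overlap, although replicate 2 was the higher in both. In pA AMO with PDGF-AA Comp was at 8.08 and 8.81, below 5'ss AMO by a log2 change of 1.70, which also passed with the block (adjusted p = 0.0122). That comparison uses the same 5'ss arrays. Without PDGF-AA Comp was at 9.95 and 10.18 with 5'ss AMO, against 9.93 and 10.30 with control AMO. The low values of Comp were thus in control and pA AMO with PDGF-AA.

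Tgfbi, a secreted protein that binds collagens and integrins and is induced by TGF-beta, was at 9.54 and 9.52 with 5'ss AMO, against 8.72 and 8.77 with control AMO. The log2 change was 0.79 or 1.73-fold (block SE 0.078, adjusted p = 0.0196 in limma with the block, 0.132 without). Its 2 groups were tight and lay clearly apart. Without PDGF-AA the difference was 0.33 in replicate 1 and 0.32 in replicate 2, which did not pass. With PDGF-AA, pA AMO was 0.26 above the same control arrays and 5'ss AMO 0.53 above pA AMO, and neither difference passed. Tgfbi and Comp were the only members of the 37 gene lists described below that passed.

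Arxes2, a gene of the X chromosome linked to adipocyte formation, was at 6.15 and 6.15 with 5'ss AMO, against 4.98 and 4.90 with control AMO (log2 change 1.21, block SE 0.120, adjusted p = 0.0196 in limma with the block). Its near-identical neighbour Arxes1 was at 0.37 and 0.11 in the pairs and did not pass. How the signal of the pair divides between the 2 clusters is therefore uncertain. Both control values of Arxes2 lay below 5.59, the 95th percentile of the olfactory receptor clusters. Draxin, a secreted guidance factor for axons that antagonises Wnt signalling, was at 8.45 and 8.85 with 5'ss AMO, against 7.35 and 7.75 with control AMO (1.10, adjusted p = 0.0468 in limma with the block). The tetraspanin Tspan18 was at 7.77 and 8.02 with 5'ss AMO, against 6.84 and 7.12 with control AMO (0.92, adjusted p = 0.0468 in limma with the block). In all 3 genes both 5'ss arrays lay above both control arrays. Against pA AMO with PDGF-AA the log2 changes were 0.85 for Arxes2, 1.00 for Draxin and 0.75 for Tspan18, none past the threshold.

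Samd5, which encodes a protein with a sterile alpha motif, was at 6.91 and 6.90 with 5'ss AMO, against 6.18 and 6.05 with control AMO (0.79, adjusted p = 0.0205 in limma with the block). Hacd2, a dehydratase in the elongation of very long chain fatty acids, was at 8.47 and 8.84 with 5'ss AMO, against 7.90 and 8.11 with control AMO (0.65, adjusted p = 0.0255 in limma with the block). A second, brighter Hacd2 cluster was at 0.51 and did not pass (adjusted p = 0.120 in limma with the block). Plcb1, a phospholipase C that cuts phosphoinositides downstream of G-protein-coupled receptors, was at 7.54 and 7.70 with 5'ss AMO, against 6.76 and 7.23 with control AMO (0.63). The pair in replicate 1 was 0.78 apart and that in replicate 2 was 0.47. Without replicate 1 of control AMO the change of Plcb1 in the fit without the block was 0.39. Against the same control arrays pA AMO with PDGF-AA gave 0.40 for Samd5, 0.30 for Hacd2 and 0.26 for Plcb1. In the same order 5'ss minus pA AMO gave 0.39, 0.35 and 0.37, and none of these differences passed.

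Agt, which encodes angiotensinogen, the precursor of angiotensin, was at 7.89 and 8.19 with 5'ss AMO, against 7.22 and 7.62 with control AMO (0.62, adjusted p = 0.0474 in limma with the block). Fchsd2, a membrane-bending adaptor of endocytosis, was 0.55 higher and Cwf19l2, related to a splicing factor of fission yeast, 0.61 higher. These last 3 lie beyond the 12 higher genes of the naming rule and were picked after their values were seen. Agt was at 7.21 and 7.68 in pA AMO with PDGF-AA, close to the control. In cells without PDGF-AA it was at 7.66 and 8.10 under 5'ss AMO, against 7.88 and 8.21 under control AMO.

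For some of the higher genes pA AMO with PDGF-AA gave values near those of 5'ss AMO. Both comparisons use the same control arrays, so their changes are only set side by side. Stmn2, a stathmin that destabilises microtubules, was 0.68 above control AMO with 5'ss AMO and 0.65 above it with pA AMO. Dennd4a, an exchange factor for a Rab GTPase, was 0.64 above it with 5'ss AMO and 0.76 with pA AMO. In the same order the differences from control AMO were 0.68 and 0.54 for the F-box gene Fbxo48 and 0.61 and 0.53 for Cwf19l2. Fbxo48 was dim, at 5.04 and 5.12 with 5'ss AMO, against 4.40 and 4.41 with control AMO. These values lie below 5.59, the 95th percentile of the olfactory receptor clusters. Atp13a3, an ATPase of polyamine transport, was at 5.88 and 6.46 with 5'ss AMO and at 5.59 and 6.52 with pA AMO, against 4.65 and 5.72 with control AMO (0.99 and 0.87). No pA AMO difference passed, while those of 5'ss AMO did. That contrast does not show that the 2 AMOs differ. For Dennd4a, with the larger change under pA AMO, adjusted p in limma with the block was 0.0613 for pA AMO and 0.0468 for 5'ss AMO. In the fit without the block the 5'ss difference of Atp13a3 was 0.45 once replicate 1 of control AMO with PDGF-AA was omitted and 1.52 once replicate 2 of that group was omitted, and that of Cwf19l2 was 0.40 without replicate 1 of that group. Direct differences of 5'ss minus pA AMO were 0.03 for Stmn2, -0.12 for Dennd4a, 0.14 for Fbxo48, 0.08 for Cwf19l2 and 0.12 for Atp13a3. The values of 2 of these genes rest on 1 of several clusters. Atp13a3 has a brighter cluster at 0.18, and Dennd4a has 9 clusters, of which the other 8 were at 0.016 to 0.43 and did not pass.

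The lower genes were led by Kng2, one of the mouse kininogens, precursors of bradykinin and inhibitors of cysteine proteases. It was at 8.37 and 8.61 with 5'ss AMO and PDGF-AA, against 9.39 and 9.85 with control AMO and PDGF-AA, a log2 change of -1.13 or 2.19-fold lower (block SE 0.097, adjusted p = 0.0166 in limma with the block, 0.464 without). Without PDGF-AA it was lower too, at 8.22 and 8.66 with 5'ss AMO, against 9.73 and 9.93 with control AMO. That change of -1.39 was the only call of the comparison without PDGF-AA (0.00459% of clusters), with an adjusted p of 0.00266 in limma with the block. The 4 arrays of 5'ss AMO thus all lay below the 4 of control AMO. In pA AMO with PDGF-AA Kng2 was at 9.33 and 9.89, and 5'ss minus pA AMO gave -1.12 (adjusted p = 0.0122 in limma with the block). Kng1, a near-identical copy, stood the other way with PDGF-AA, at 6.80 and 7.11 with 5'ss AMO, against 6.36 and 6.64 with control AMO. That change was 0.46 (adjusted p = 0.0865 in limma with the block). Without PDGF-AA Kng1 was lower with 5'ss AMO, as Kng2 was, by -0.36 and -0.21 in the pairs. The division of probes between the copies is uncertain.

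Cyp2d22, a cytochrome P450, was at 7.80 and 7.89 with 5'ss AMO, against 8.41 and 8.51 with control AMO (-0.61). Galnt16, which starts O-linked glycans on proteins, was at 8.54 and 8.56 with 5'ss AMO, against 9.02 and 9.25 with control AMO (-0.59). Ptgdr2, a receptor for prostaglandin D2, was at 5.82 and 5.50 with 5'ss AMO, against 6.38 and 6.08 with control AMO (-0.57). Each passed at an adjusted p of 0.0468 in limma with the block, and none had overlapping groups. Mrgpra6, annotated as a transcribed pseudogene in the family of Mas-related receptors, passed as well (-0.83), at 2.72 and 2.50 with 5'ss AMO, against 3.48 and 3.40 with control AMO, a level below the median of the olfactory receptors. Against the same control arrays pA AMO with PDGF-AA gave -0.16 for Cyp2d22, -0.25 for Galnt16, -0.43 for Ptgdr2 and -0.97 for Mrgpra6. In the same order 5'ss minus pA AMO gave -0.45, -0.34, -0.14 and 0.14. None of these differences passed. The remaining 2 lower calls of 5'ss against control AMO were olfactory receptors.

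Past these, the genes with the smallest p without the block among the lower ones included Ccl5, a chemokine that attracts leukocytes. Ccl5 was at 8.19 and 8.01 with 5'ss AMO and PDGF-AA, against 9.09 and 8.88 with control AMO and PDGF-AA (-0.88, adjusted p = 0.272 in limma, 0.0804 with the block). Without PDGF-AA it was at 8.28 and 8.61 with 5'ss AMO, against 9.14 and 9.19 with control AMO, and the groups did not overlap there either. The others were the actin-binding leukocyte gene Lsp1 (-0.50), the potassium channel Kcnj14 (-0.65), the channel gene Calhm4 (-0.48), and Ms4a1 (-0.54), Kap (-0.60) and Teddm3 (-0.55), the last 3 at levels of 3.30 to 4.70. None passed with the block, at adjusted p between 0.0579 and 0.100 in limma. Kcnj14 and Calhm4 lay below 5.59, the 95th percentile of the olfactory receptor clusters, in both groups. Against the same control arrays pA AMO with PDGF-AA gave -0.61 for Ccl5, -0.11 for Lsp1, -0.25 for Kcnj14 and -0.44 for Calhm4. For Ms4a1, Kap and Teddm3 it gave -0.27, -0.52 and -0.58. None of these pA AMO differences passed.

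**Figure D2:**
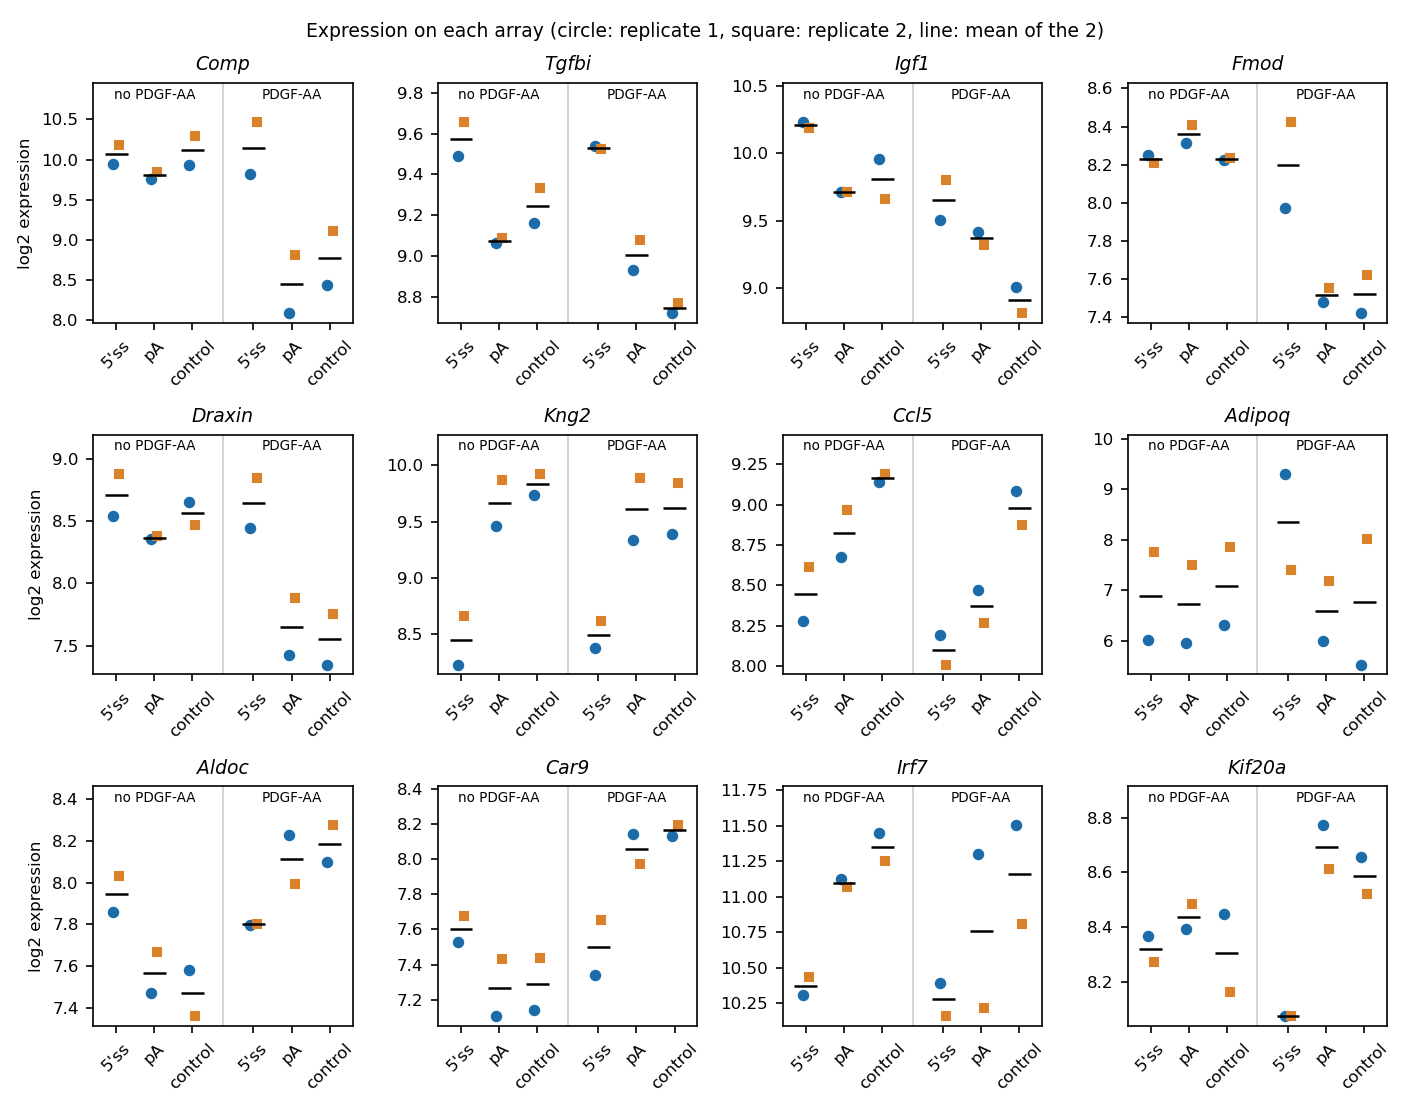
Log2 expression of 12 genes on each of the 12 arrays, by AMO (5'ss, pA, control), with the groups without PDGF-AA left of those with it; circles are replicate 1, squares replicate 2 and lines the mean of the 2. Comp with PDGF-AA lies at 9.82 and 10.47 with 5'ss AMO and at 8.43 and 9.11 with control AMO, Kng2 is low in all 4 arrays of 5'ss AMO, and Adipoq with PDGF-AA lies at 9.31 and 7.41 with 5'ss AMO and at 5.53 and 8.02 with control AMO, so that these 2 groups overlap.

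The genes were next read through 37 lists of pathways and cell types. As no single list member but Tgfbi and Comp passed, a list is described by its median log2 change, with the medians within replicates 1 and 2 next to -0.020 and -0.021 for all clusters, and by members without overlap, next to 12.5% higher and 17.7% lower. In 19 of 37 lists the 2 replicates had medians of opposite sign. The plot of list medians shows how far the 2 replicates lie apart.

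**Figure D3:**
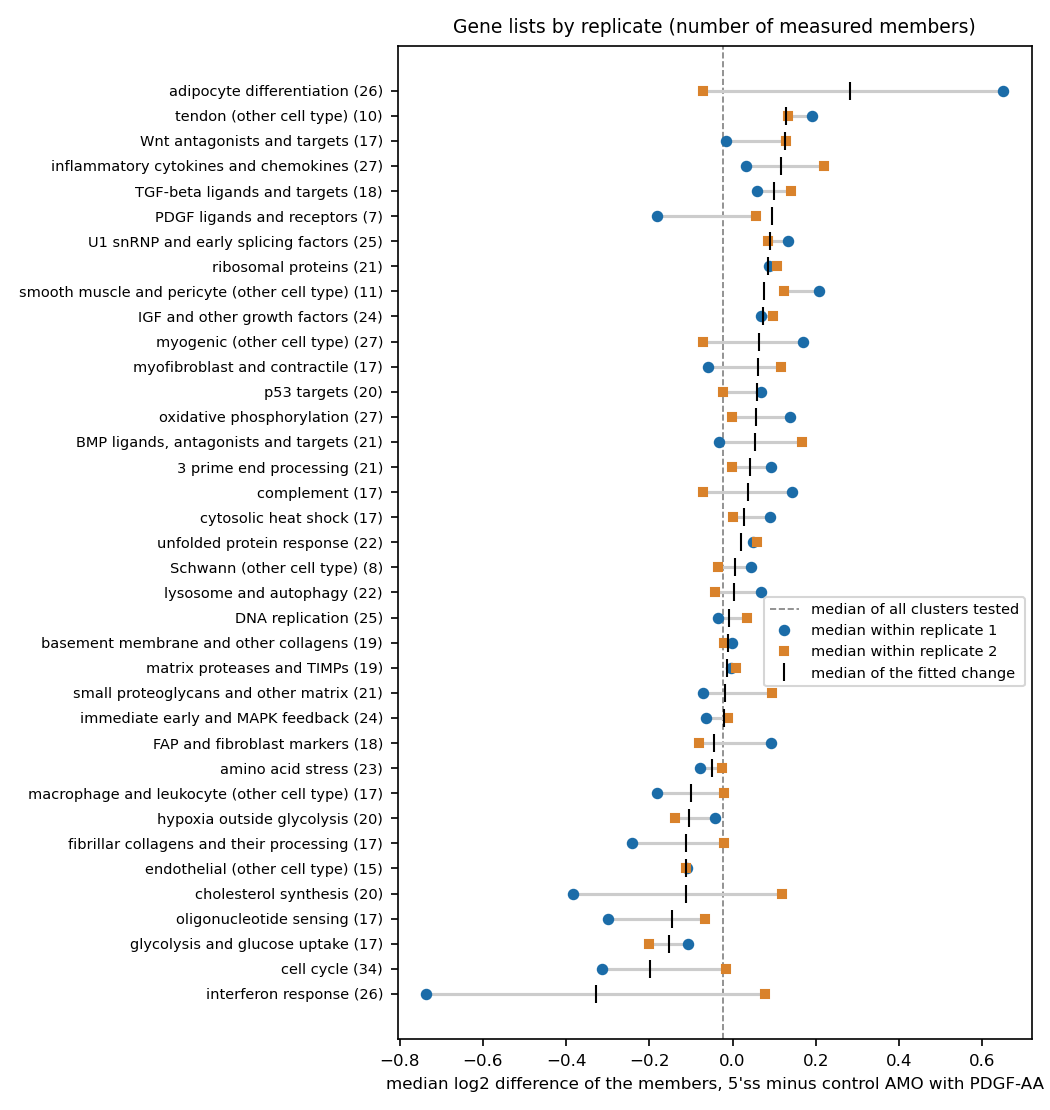
Median log2 difference, 5'ss minus control AMO with PDGF-AA, of the members of 37 gene lists within replicate 1 (circles) and replicate 2 (squares), with the median of the fitted change (bars) and the median of all clusters tested (dashed line). Adipocyte and interferon genes have medians of 0.65 and -0.74 in replicate 1 and near 0 in replicate 2, while glycolysis genes lie at -0.11 and -0.20.

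Glycolysis and glucose uptake genes were lower in both replicates. Their median change was -0.15 (-0.11 in replicate 1 and -0.20 in replicate 2), 13 of 17 measured members were lower in both pairs, and 11 of 17 lay without overlap below the control arrays, against 2 of 17 above them. Aldoc, an aldolase, was at 7.80 and 7.80 with 5'ss AMO and PDGF-AA, against 8.10 and 8.28 with control AMO and PDGF-AA (-0.39). The lactate exporter Slc16a3 was at 9.83 and 9.78 with 5'ss AMO, against 10.12 and 10.09 with control AMO (-0.30), and Tpi1, triosephosphate isomerase, was at -0.35. None of the 17 passed, with or without the block. Hk1 (0.13), Slc2a3 (0.16) and Pfkfb3 (0.15) were at the other end.

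Genes of the hypoxia response outside glycolysis also leaned down, with a median of -0.10 (-0.043 and -0.14), 12 of 20 lower in both pairs, 10 of 20 lower without overlap and 3 of 20 higher. Car9, the carbonic anhydrase known as a marker of hypoxia, was at 7.34 and 7.66 with 5'ss AMO and PDGF-AA, against 8.14 and 8.19 with control AMO and PDGF-AA (-0.67, adjusted p = 0.556 in limma, 0.0926 with the block). Ankrd37 was at -0.28 and the prolyl hydroxylase Egln3 at -0.25. Not all members went this way: Ndrg1 was at 0.21, Angptl4 at 0.19 and Vegfa, the angiogenic growth factor, at 0.16.

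Without PDGF-AA both lists stood on the other side, with medians of 0.18 for glycolysis and 0.22 for hypoxia genes. Car9 there was at 0.31 and Aldoc at 0.48, and the differences between the effects with and without PDGF-AA were -0.98 for Car9 and -0.86 for Aldoc. In limma 0 clusters passed for that difference (0.0%), with 643 (2.95%) at an unadjusted p under 0.05. With the block 0 passed as well, and 1731 (7.94%) were at an unadjusted p below 0.05.

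The promoters of Car9 and Slc16a3 are shown because they hold ACGTG, a form of the core that hypoxia-inducible factors bind. Aldoc, with the lowest value of the glycolysis list, is shown because its first listed promoter lacks these letters. Only this form was searched for. The printed Aldoc promoter holds the form with guanine as its first letter, so it does not stand for a gene without the core. They are RefSeq sequences of GRCm38.p6, the 250 bases before the start of transcription on the plus strand, with matches to ACGTG on either strand in capitals. Car9 lies at chr4:43506776-43507025, Slc16a3 at chr11:120948817-120949066 and promoter 1 of 2 of Aldoc at chr11:78322823-78323072.
Car9: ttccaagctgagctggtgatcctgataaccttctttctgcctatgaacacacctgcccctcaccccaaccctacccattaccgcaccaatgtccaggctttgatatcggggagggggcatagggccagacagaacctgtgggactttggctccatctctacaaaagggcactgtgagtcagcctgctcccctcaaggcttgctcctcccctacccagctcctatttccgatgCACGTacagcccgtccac
Slc16a3: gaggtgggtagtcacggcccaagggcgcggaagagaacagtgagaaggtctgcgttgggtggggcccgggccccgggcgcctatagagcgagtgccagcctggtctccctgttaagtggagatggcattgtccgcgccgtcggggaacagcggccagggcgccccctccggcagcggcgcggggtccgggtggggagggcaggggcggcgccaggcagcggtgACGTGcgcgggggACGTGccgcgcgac
Aldoc: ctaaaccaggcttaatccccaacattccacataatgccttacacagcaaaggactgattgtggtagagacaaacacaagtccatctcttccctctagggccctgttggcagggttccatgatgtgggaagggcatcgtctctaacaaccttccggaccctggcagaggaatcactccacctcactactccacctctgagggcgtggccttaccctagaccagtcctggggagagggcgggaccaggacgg
Car9 has 1 match, which starts 18 bases before the transcription start, Slc16a3 has 2, at 27 and 14 bases, and this Aldoc promoter has 0. Tpi1, also named above, has 0 in its listed promoter. ACGTG occurs in the promoters of 10 of 16 glycolysis genes (62.5%) and 10 of 15 hypoxia genes (66.7%) with a listed promoter. Of 15614 tested genes 20.9% have it. These lists were made by pathway, so their shares do not bear on the comparison of the AMOs. A match is a description of the sequence and not a site of binding, and a promoter without ACGTG can hold another form of the core. A part of hypoxia-inducible factors in the lower values was not tested.

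**Figure D4:**
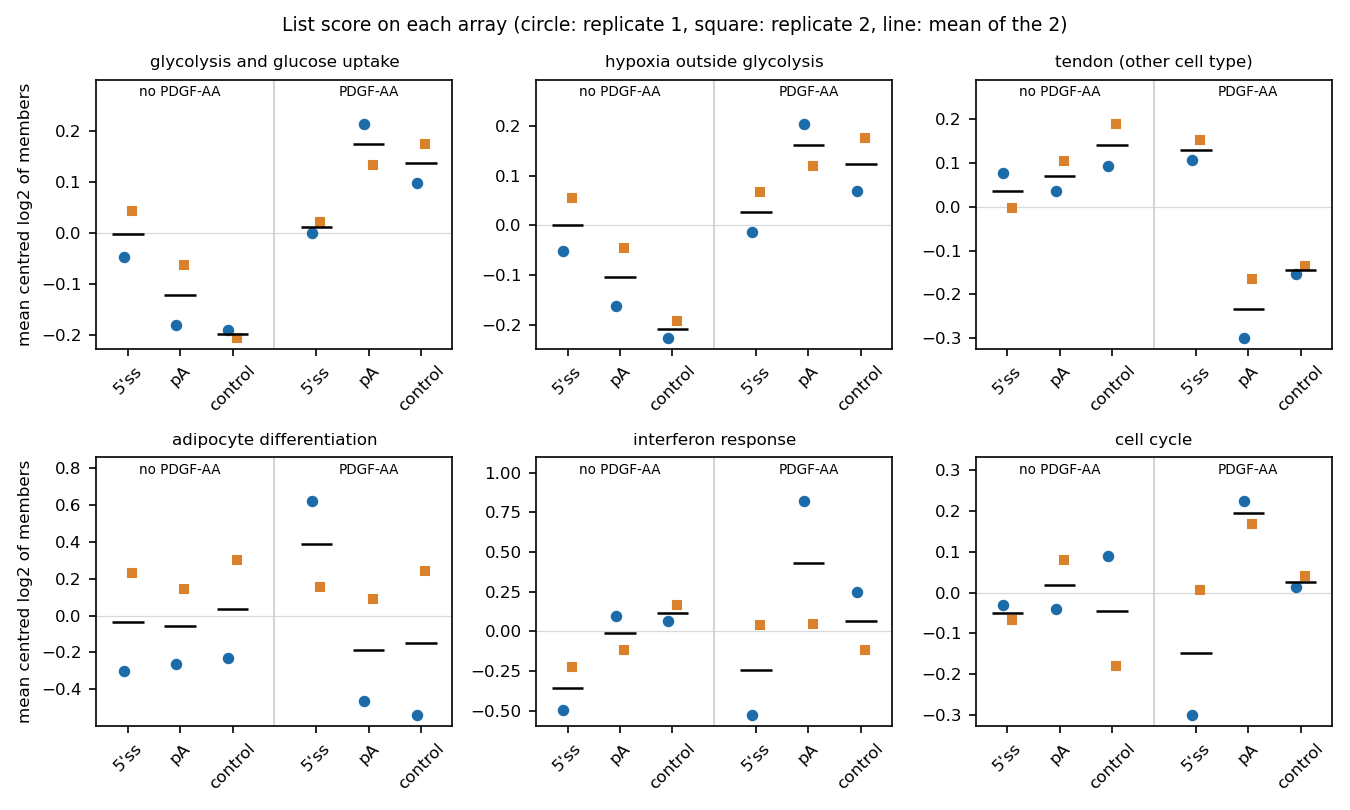
Score of 6 gene lists on each of the 12 arrays, as the mean over members of log2 expression centred on each gene's mean over the arrays, by AMO without and with PDGF-AA; circles are replicate 1, squares replicate 2 and lines the mean of the 2. With PDGF-AA the glycolysis score was 0.00 and 0.02 with 5'ss AMO, against 0.10 and 0.17 with control AMO, whereas the adipocyte score differs most between the replicate 1 arrays.

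Matrix genes lay on both sides of 0. Fibrillar collagens and their processing enzymes had a median of -0.11 (-0.24 and -0.02), 9 of 17 lower without overlap and 0 of 17 higher, with the crosslinking enzyme Loxl1 at -0.33 and the prolyl hydroxylase subunit P4ha2 at -0.32, against 0.34 for P4ha3. Basement membrane and other collagens had a median of -0.01 (-0.0012 and -0.02) and held the 2 collagens with the highest values. Col14a1, a fibril-associated collagen, was at 10.39 and 10.47 with 5'ss AMO, against 9.73 and 9.75 with control AMO (0.69, adjusted p = 0.272 in limma, 0.0624 with the block). Col15a1 was at 9.74 and 9.64 with 5'ss AMO, against 7.99 and 9.26 with control AMO (1.06), a difference of 1.74 in replicate 1 and 0.39 in replicate 2.

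The list of small proteoglycans, which bind collagen fibrils, and other matrix genes pointed both ways. Its 21 measured members had a median of -0.02 (-0.07 and 0.10). Fmod, fibromodulin, was at 7.97 and 8.42 with 5'ss AMO, against 7.42 and 7.62 with control AMO (0.68, adjusted p = 0.0817 in limma with the block), whereas Ogn, osteoglycin, was at 11.31 and 11.17 with 5'ss AMO, against 11.65 and 11.72 with control AMO (-0.44). Omd was at -0.47. No small proteoglycan passed, and Aspn (-0.48) had opposite signs in the 2 replicates. The tendon list, which holds Comp and Fmod, had a median of 0.13 (0.19 and 0.13), and 3 of 10 members were higher without overlap, while its defining transcription factors Scx and Mkx were at 0.08 and 0.05 and the tendon marker Tnmd at 0.26. The part of tendon cells in the Comp difference was not tested. Myofibroblast genes differed between replicates, with Acta2, smooth muscle actin, at -0.32 and 1.57.

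Among secreted growth factors, 6 of 24 members were higher without overlap and 0 lower. Igf1, insulin-like growth factor 1, was at 9.50 and 9.80 with 5'ss AMO and PDGF-AA, against 9.01 and 8.81 with control AMO and PDGF-AA (0.74, adjusted p = 0.281 in limma, 0.0817 with the block). Gas6, a ligand of the TAM receptor kinases, was at 12.81 and 12.88 with 5'ss AMO, against 12.20 and 12.40 with control AMO (0.55), and came closest to passing of this list (adjusted p = 0.0506 in limma with the block). Igfbp3, an IGF-binding protein, was at 0.63, with 0.18 in replicate 1 and 1.08 in replicate 2. Ptn was lowest, at -0.39. Neither Igf1 nor Gas6 had overlapping groups.

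TGF-beta genes had a median of 0.10 (0.06 and 0.14). The medians of the BMP list, 0.05 (-0.03 and 0.17), and of the Wnt list, 0.13 (-0.015 and 0.13), had opposite signs in the 2 replicates. Beside Tgfbi, the ligands Tgfb2 and Tgfb3 were at 0.42 and 0.26 and Tgfb1 at -0.19. Bmp4 was at 9.86 and 10.06 with 5'ss AMO, against 9.50 and 9.31 with control AMO (0.56), and the BMP target Id2 at 9.38 and 9.58 with 5'ss AMO, against 8.90 and 9.14 with control AMO (0.46). Bmp6 was at 9.03 and 9.24 with 5'ss AMO, against 9.67 and 9.64 with control AMO (-0.52). Of the secreted Wnt antagonists, Sfrp1 was at 0.50 and Sfrp4 at 0.64, and Wif1 at -0.26. Apart from Tgfbi none of these passed.

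The inflammatory list had a median of 0.12 (0.03 and 0.22), with 10 of 27 members higher without overlap and 4 of 27 lower. Saa3, an acute phase protein made by stromal cells, was at 9.41 and 8.86 with 5'ss AMO and PDGF-AA, against 6.93 and 7.82 with control AMO and PDGF-AA (1.76, adjusted p = 0.281 in limma, 0.0881 with the block). The alarmin Il33 was at 11.70 and 11.41 with 5'ss AMO, against 10.81 and 10.86 with control AMO (0.72), and the cytokine Il6 at 7.30 and 7.35 with 5'ss AMO, against 6.89 and 6.62 with control AMO (0.57). The chemokines Ccl5 (-0.88), Ccl11 (-0.48) and Ccl20 (-0.32) were at the low end. Macrophage and leukocyte markers had a median of -0.10 (-0.18 and -0.02), with 5 of 17 lower without overlap, such as Mrc1 (-0.38), Cd3e (-0.38) and Itgam (-0.36), and 1 of 17 higher. The higher one was Lyz2, a lysozyme, at 6.88 and 7.48 with 5'ss AMO, against 6.31 and 5.86 with control AMO (1.10, adjusted p = 0.0865 in limma with the block). Its near-identical copy Lyz1 was at -0.29 and 0.26 in the pairs.

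Interferon response genes differed between the replicates. Their median was -0.74 in replicate 1 and 0.08 in replicate 2, with 9 of 26 members lower without overlap and 0 higher. Irf7, the transcription factor of the interferon response, was at 10.39 and 10.16 with 5'ss AMO and PDGF-AA, against 11.51 and 10.81 with control AMO and PDGF-AA (-0.88, adjusted p = 0.815 in limma, 0.173 with the block). Cxcl10 was at -0.67 in replicate 1 and 1.19 in replicate 2. Without PDGF-AA the list's median was -0.44. Sensors of nucleic acids, which can respond to transfected oligonucleotides, had a median of -0.15 (-0.30 and -0.07) and 9 of 17 lower without overlap, with Zbp1 at -0.58 and Dhx58 at -0.56.

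Adipocyte genes also differed between the replicates. The median was 0.65 in replicate 1 and -0.07 in replicate 2. Adipoq, the adipokine adiponectin, was at 9.31 and 7.41 with 5'ss AMO and PDGF-AA, against 5.53 and 8.02 with control AMO and PDGF-AA, so the groups overlapped and the pairs differed by 3.78 and -0.61. The fatty acid transporter Cd36 differed by 4.35 and -0.32, Car3 by 4.26 and -0.52 and the fatty acid binding protein Fabp4 by 3.85 and -0.22. In the plot of the pairs these genes lie far to the right at no height, away from the genes that passed. Arxes2, which is linked to adipocytes, differed by 1.17 in replicate 1 and 1.25 in replicate 2. Its change was 1.18 in the fit with the block once replicate 1 of 5'ss AMO with PDGF-AA was omitted. The part of adipocytes in the Arxes2 difference was not tested.

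**Figure D5:**
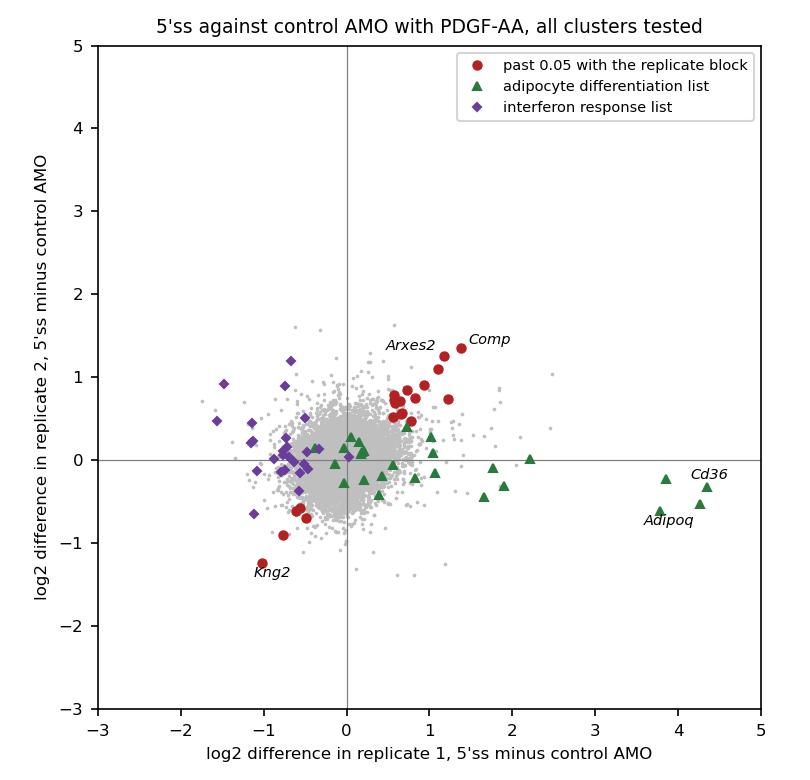
Log2 difference of 5'ss minus control AMO with PDGF-AA in replicate 1 (horizontal axis) against replicate 2 (vertical axis) for all 21789 clusters tested, with genes past 0.05 with the block as circles, adipocyte genes as triangles and interferon genes as diamonds. Comp lies at 1.38 and 1.36, Kng2 at -1.02 and -1.24, and Adipoq at 3.78 and -0.61.

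Proliferation genes leaned down in replicate 1. Cell cycle genes had medians of -0.31 and -0.01, with 15 of 34 lower without overlap and 0 higher. The mitotic kinesin Kif20a was at 8.08 and 8.08 with 5'ss AMO, against 8.66 and 8.52 with control AMO (-0.51, adjusted p = 0.0926 in limma with the block), the mitotic kinase Plk1 was at -0.51 and the kinesin Kif2c at -0.39. Genes of DNA replication had a median of -0.01 (-0.03 and 0.03), with Mcm3 lowest at -0.27. Immediate early genes and feedback regulators of MAPK signalling, which lies downstream of PDGF receptors, had a median of -0.02 (-0.06 and -0.01), with Spry2 at -0.30, Dusp1 at -0.29 and Myc at 0.24. Cholesterol synthesis genes had medians of -0.38 and 0.12, with Stard4 at -0.28, Lss at -0.27 and Ebp at 0.15.

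Genes of the splicing machinery were measured because the AMO acts on a splice site. U1 snRNP and early splicing factors had a median of 0.09 (0.13 and 0.08), with 18 of 25 higher in both pairs. Without overlap 9 of 25 were higher and 1 of 25 lower. Snrpe was at 0.36, Rbm25 at 0.34 and Snrpa at -0.17. Against the same control arrays pA AMO with PDGF-AA also gave this list a median of 0.09, and 5'ss minus pA AMO gave 0.06. Genes of 3' end processing had a median of 0.04 (0.09 and -0.0017), with Cpsf6 at 0.20 and Cpsf1 at -0.12. Ribosomal proteins, which are bright on the array, had a median of 0.09 (0.09 and 0.11), with 18 of 21 higher in both pairs, 12 of 21 higher and 0 of 21 lower without overlap, and Rpl14 at 0.54. The brightest of the 5 bins of all clusters had a median of 0.026. Oxidative phosphorylation genes had a median of 0.06 (0.14 and -0.0007), with Ndufb5 at 0.30.

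The identity of the cells gave single high values beside medians near 0. FAP and fibroblast markers had a median of -0.04 (0.09 and -0.08), with Mme, a membrane metalloprotease, at 10.37 and 10.68 with 5'ss AMO, against 9.30 and 10.04 with control AMO (0.85, adjusted p = 0.0542 in limma with the block), Pi16 at 0.59 and Dpp4 at -0.60, where Pi16 and Dpp4 had opposite signs in the replicates. Smooth muscle and pericyte genes had a median of 0.08 (0.21 and 0.12), with the potassium channel subunits Abcc9 (0.62) and Kcnj8 (0.46) highest. Endothelial genes had a median of -0.11 in both replicates, and the myogenic genes had medians of 0.17 and -0.07. The myogenic score, the mean centred level of the list, was 0.19 and -0.17 with 5'ss AMO and PDGF-AA, against 0.02 and -0.09 with control AMO and PDGF-AA. The part of these other cells in the gene differences above was not tested.

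Stress lists had medians near that of all clusters. The unfolded protein response had a median of 0.02 (0.05 and 0.06) with Xbp1 at 0.27, and amino acid stress one of -0.05 (-0.08 and -0.03) with Cth at 0.46 and Atf5 at -0.32. The medians of 4 lists had opposite signs in the 2 replicates: 0.03 for cytosolic heat shock with Hspe1 at 0.27, 0.06 for p53 targets with Sesn1 at 0.33, 0.00 for lysosome and autophagy genes with Neu1 at -0.22, and 0.04 for complement genes with C7 at 0.53 and Masp1 at -0.50. Those of matrix proteases and their inhibitors (-0.01, with Adamts4 at 0.38 and Timp4 at -0.20) and of Schwann cell genes (0.01, with Erbb3 at -0.29) did so as well.

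Beside the other comparisons, the one with PDGF-AA gave more calls with the block. It had 22, the comparison of 5'ss with control AMO without PDGF-AA had 1, 5'ss against pA AMO with PDGF-AA had 3 (0.0138%: Comp, Kng2 and a small RNA), and pA against control AMO with PDGF-AA had 0 (smallest adjusted p 0.0613 in limma with the block, 2933 or 13.5% of clusters at an unadjusted p below 0.05). Without the block limma gave 0 calls in the last 3 comparisons, with 450 (2.07%), 835 (3.83%) and 1065 (4.89%) clusters at an unadjusted p below 0.05. The first 2 share no array, yet the difference between them passed for 0 genes, so an effect that depends on PDGF-AA was not shown for any single gene. For Comp that difference was 1.42 (adjusted p = 0.464 in limma with the block), for Fbxo48 0.81, for Tspan18 0.90 and for Kng2 0.26 (adjusted p = 0.670).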

How the data were processed

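The deposited values are log2 expression per transcript cluster, which the authors made with Affymetrix Expression Console and RMA, as the submitters' processing notes say. Versions are not given in the sources used here. RMA subtracts background, brings all arrays to 1 distribution and summarises probes, so a value has no depth, and the number of arrays limits the precision. Of 35556 clusters, 21789 have exactly 1 gene symbol in the platform annotation (19938 genes), 1621 have several and 12146 are unnamed here. By gene ID, 21698 of the 21789 matched RefSeq names of GRCm38.p6.

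Groups came from the sample titles. All 12 arrays entered 1 model with a mean per group, in limma 3.58.1 and R 4.3.3 (lmFit and eBayes, 6 residual degrees of freedom), p-values are two-sided and adjusted by Benjamini-Hochberg over the 21789 clusters, and the threshold is 0.05. SE is the standard error of this model. The fit with the replicate number as a block has 5 residual degrees of freedom. No label says what a number shares. After group means were subtracted, same-numbered arrays correlated at 0.20 to 0.61 over the 15 pairs of groups (0.35 for the 2 compared). In the values without that subtraction, the best-correlated other array had the same number for 12 of 12 arrays, a hint from the data. The fits were tested on simulated data with independent noise on each array, so that test does not bear on the use of the block.

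Named are the PDGF genes and, in each direction, up to 12 genes past the threshold, filled with genes past it with the block by size of change and then by smallest p, plus members at the ends of each list. Predicted genes, small RNAs and olfactory receptors are counted and not named. A gene with several clusters enters a list by the one with the highest mean. The comparison, the members and the lists were chosen with earlier results of these data known. Alternatives were the block, fewer arrays, array weights, a filter on dim clusters, all clusters, median centring, a second quantile normalization, moderation with trend and robust settings, a fold minimum of 1.5, and each array left out. No scanner files were used here.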

Additional observations from a re-analysis of the deposited data

How the results depend on the processing

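The count of clusters past 0.05 between 5'ss and control AMO with PDGF-AA depended on the fit. Without the block it was 0 with the 4 or the 6 PDGF-AA arrays alone, without dim clusters (mean log2 below 6.10), with all clusters, median centring, array weights or a fold minimum, 3 with repeated quantile normalization and 6 with trend and robust moderation. Leaving out each array in turn gave 0 to 1, the 1 being Arxes2 without either array of pA AMO without PDGF-AA. With the replicate block, which pairs same-numbered arrays, it was 22, and 1 with the 6 PDGF-AA arrays alone. Leaving out each of the 4 arrays with the block gave 0 to 21. Alternatives chosen after seeing the data set the block together with another choice and gave 106 without dim clusters (15 of the 22 among them), 16 with quantile normalization (13), 31 with median centring (22), 414 with trend and robust moderation (22), 4 with array weights (4) and 0 with all clusters (smallest adjusted p 0.117 in limma). The filter on dim clusters takes out Arxes2, Fbxo48, Atp13a3, Ptgdr2 and Mrgpra6, whose means lie below 6.10. The block gave 1 call for 5'ss against control AMO without PDGF-AA and 3 for 5'ss against pA AMO with PDGF-AA. Without it limma gave 0 in both (450 and 835 at an unadjusted p below 0.05). The block changed no count of the other comparisons. The causes were not tested.

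All 871 values of the 27 named genes outside the PDGF family kept their direction under these alternatives. That outcome was largely set in advance and does not test the directions. The genes were named by their results in this comparison, and both pairs of each had the same sign. Many settings cannot alter a log2 change, among them the block, array weights, moderation, the fold minimum and fewer arrays of other groups without the block. Of these genes 6 passed in at least 1 setting without the block. Of 231 values of the 7 PDGF genes 4 reversed. With replicate 1 of 5'ss AMO and PDGF-AA left out, Pdgfd was at 0.010, and at 0.044 with the block. With replicate 2 left out, Pdgfrl was at -0.089 (-0.17 with the block), and it was at 0.40 with replicate 1 left out. Of 259 list medians 56 moved by over 1 SD, the SD being that of the list's 2 replicate medians. A list whose 2 replicates lie close therefore counts as moved more easily, so the count does not measure stability. The median of all clusters was -0.022 as deposited, -0.0085 after quantile normalization and -0.010 after median centring.

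With 2 arrays a group the spread rests on the 12 arrays together, signal over background could not be read from summarised values, and Pdgfra splicing is not resolved.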
